A study of Mus musculus with 12 samples.

Results

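The genes described here build and serve the photoreceptor cilium. They are 41 genes of the connecting cilium, of intraflagellar transport (IFT) and of the BBSome, chosen by symbol, and each is 1 row of the 56748 genes in the deposited table. They fall into 6 groups: 11 genes of the IFT-B complex, 3 of the IFT-A complex, 8 BBSome subunits, 4 genes of BBSome recruitment and assembly, 4 kinesin-2 motor genes, and 11 genes of the connecting cilium and transition zone. The study pulled down polyribosomes from rods (Rod-TRAP) and sequenced their polyA RNA beside the total RNA of the retina (input), in mice with and without pyruvate kinase M2 (PKM2) in rods. There were 3 libraries in each of 4 groups, which are control rods, Rodko rods, control retina and Rodko retina. All mice were homozygous for Ribo-Tag, an allele that adds an HA tag to a ribosomal protein once Cre has acted, and all carried rhodopsin-Cre, which is active in rods, so the controls carry the tag and the Cre too. The controls (Pkm2 Rodhet, named wt in the labels) had 1 floxed Pkm2 allele, so 1 copy was open to deletion in rods, and the Rodko mice had both alleles floxed. The mice were 2 months old by the methods, whereas the text deposited with the data says 2 weeks. Tissue was frozen after perfusion with cycloheximide, which holds ribosomes on their messages.

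The outer segment of a rod is a modified primary cilium, joined to the cell body by the connecting cilium, which corresponds to the transition zone of other cilia. Proteins made in the inner segment pass along it, carried on IFT trains that kinesin-2 moves outward and dynein-2 moves back, with IFT-B serving mainly outward and IFT-A mainly return transport. The BBSome is a coat-like adaptor that is brought to the membrane by the GTPase Arl6 and removes membrane proteins from the outer segment. Mutations in many of these genes cause retinal degeneration, as in Bardet-Biedl syndrome, nephronophthisis with retinal disease and Leber congenital amaurosis.

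Totals ran from 13458890 to 22790074 reads per library. All 41 genes had at least 10 reads in every library, and the lowest value of any of them was 45 reads. Rod markers checked the pull-down: all 20 were higher in control rods than in control retina, by 1.21 to 2.11 on the log2 scale, with a median of 1.91. Among the marker lists of other cells, medians were -3.03 for bipolar cells, -2.91 for Müller glia, -2.91 for amacrine cells and -0.70 for cones. Of the 15 genes on the bipolar list 13 were lower and 1, Lrit3, was higher at 0.66. Which cells the RNA of Lrit3 came from was not tested. Depletion was not uniform. Summed as scaled reads, the bipolar markers had a mean of 8082 in control rods and 21904 in control retina. The endothelial markers fell less, from 6860 in control retina to 5595 in control rods. Pkm, the targeted gene, was lower in Rodko rods, with a mean deposited value of 22850 ± 795 against 52565 ± 1766 (SD, n = 3 each). The log2 difference was -1.20 ± 0.08 (SE), with an adjusted p of 5.4e-05 in limma. This row sums both splice forms of the gene, so PKM2 could not be read alone. Nothing in the labels says that the libraries of a group came from separate mice, so p-values measure the spread between libraries.

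Most of the cilium genes were higher in the rod pull-down than in the retina, and the BBSome was highest among them. In control mice 33 of the 41 genes were higher in rods, 3 were lower and 5 did not pass the test. The highest was Bbs9, a BBSome subunit, at 3.20-fold, and the lowest was Rpgrip1, which anchors RPGR in the connecting cilium, at 0.598 of its retinal value. The median difference was 0.78 on the log2 scale. In Rodko mice, whose libraries are all different ones, 35 were higher, 2 were lower and the median was 0.82.

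These differences are log2(scaled reads + 1) in rods minus the same in retina, with reads scaled over all 12 libraries by TMM, and a gene was called at an adjusted p under 0.05 in 1 limma fit of the 12 libraries. Of the 25478 genes tested, 23.6% were called higher and 35.7% lower in control rods. In Rodko mice these shares were 24% and 35.3%. Among the 12918 genes with at least 10 reads in every library, a set that holds all 41 cilium genes, 45.8% were called higher and 28% lower in control rods, and the median of all genes was 0.24. In Rodko rods 46.9% of these genes were called higher and 27.8% lower. The cilium genes' counts of 33 higher and 3 lower, and of 35 and 2 in Rodko rods, were the same with this filter. The 3 rod and 3 retina libraries of control mice did not overlap for 33 cilium genes that were higher in rods and 3 that were lower, where 25.3% and 36.8% of all genes tested had such values.

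The size of each difference depends on how rods and retina are put on 1 scale. Rhodopsin alone took 11.3% ± 0.432 of all reads in control rods and 3.84% ± 0.378 in control retina (SD, n = 3 each). Scaled by library totals, 20 cilium genes were higher and 9 lower in control rods, with a median of 0.23 against -0.76 over all genes, and 8.43% of all genes were called higher and 49.1% lower. In Rodko rods 19 were higher and 6 lower, beside 8.49% and 48.8% of all genes. By TMM the median of all genes tested was -0.37. In control mice the cilium genes' median stood above that of all genes by 1.14 with TMM and by 0.99 with library totals. Against the genes with at least 10 reads in every library, by TMM, it stood above by only 0.54, and by 0.55 in Rodko mice. Of all genes called, 39.8% were higher by TMM and 14.7% by library totals.

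**Figure D1:**
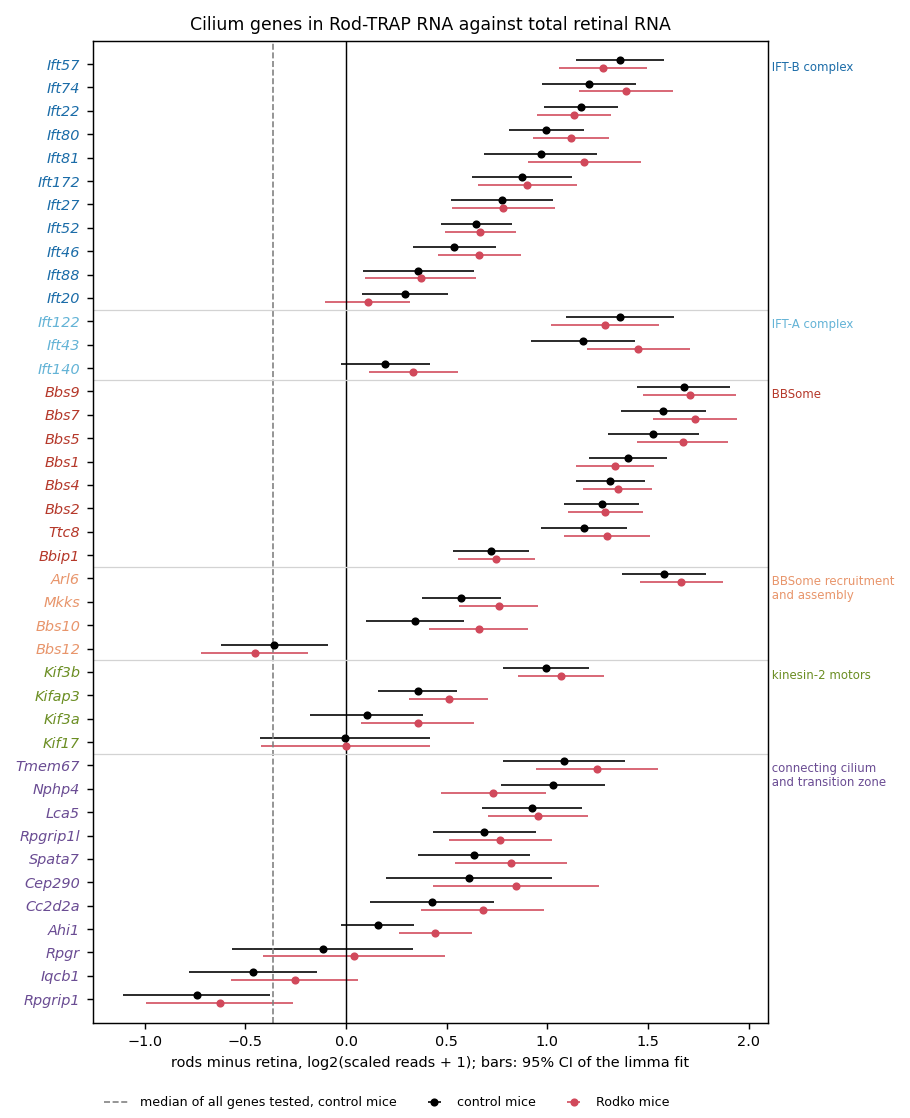
Rods minus retina for each of the 41 cilium genes, in log2(scaled reads + 1), with control mice in black, Rodko mice in red and bars for the 95% confidence interval of the limma fit. The genes are ordered by group, and all 8 BBSome genes lie to the right of 0 in both genotypes, from Bbip1 at 0.72 to Bbs9 at 1.68 in control mice, while Rpgrip1 and Bbs12 lie to the left. The dashed line at -0.37 is the median of all genes tested in control mice.

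The BBSome was the group with the highest median, although the groups were not tested against each other. All 8 subunits were higher in control rods, with a median of 1.36, and 7 of 8 were still called higher, with none lower, when libraries were scaled by totals. In control mice the differences were 1.68 for Bbs9, 1.58 for Bbs7, 1.53 for Bbs5, 1.40 for Bbs1, 1.31 for Bbs4, 1.27 for Bbs2, 1.18 for Ttc8 and 0.72 for Bbip1. Bbs1, Bbs2, Bbs4, Bbs5, Bbs7, Bbs9 and Ttc8 form the body of the complex, and Bbip1, a small subunit, was the only one under 1. In Rodko mice all 8 were higher again, from 0.75 to 1.73.

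Bbs9 (ENSMUSG00000035919) had 4544, 4987 and 4229 scaled reads in control rods, against 1399, 1742 and 1200 in control retina. In Rodko mice it had 4524, 4892 and 5165 in rods and 1491, 1459 and 1508 in retina. Every rod library was above every retina library in both genotypes, and the adjusted p was 3.3e-09 in control and 2.3e-09 in Rodko mice by limma. Bbs9 stood at the 99.3 percentile of all genes tested in control mice, with 185 genes above it.

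Bbs7 (ENSMUSG00000037325) had 5732, 5870 and 5798 scaled reads in control rods and 5721, 5624 and 6857 in Rodko rods. Its retina libraries held 1910, 2172 and 1770 in control and 1909, 1604 and 1957 in Rodko mice. The fold was 2.98 in control and 3.33 in Rodko mice, with no overlap between rods and retina.

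Bbs5 had 1903, 2259 and 2050 scaled reads in control rods against 730, 817 and 617 in control retina. In Rodko mice the values were 1966, 2367 and 2098 in rods and 662, 639 and 711 in retina. Bbs5, at a 2.88-fold difference in control mice, is the subunit known for binding phosphoinositides of the membrane.

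Bbs1 had 4780, 5061 and 4844 scaled reads in control rods and 1671, 2138 and 1774 in control retina, a 2.64-fold difference. In Rodko mice it had 4655, 5092 and 5593 in rods and 1988, 2077 and 1995 in retina. Rods and retina did not overlap for Bbs1, the subunit that contacts Arl6.

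The genes that recruit and assemble the BBSome did not move as 1 group. Arl6, the GTPase that brings the BBSome to the membrane, was as high as the subunits at 1.58, and the chaperonin-like genes Mkks and Bbs10 were higher at 0.57 and 0.34, while Bbs12 of the same chaperonin-like family was lower at -0.36. With library totals only Arl6 of the 4 was called higher, at 1.03, Mkks stood at 0.02 and Bbs10 at -0.21 without a call, and Bbs12 was lower at -0.91. By TMM the control call of Bbs10 was lost without control rods replicate 2, control retina replicate 1 or control retina replicate 3, down to 0.27 with an adjusted p of up to 0.074 in limma. Mkks, Bbs10 and Bbs12 act together in BBSome assembly.

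In control rods Arl6 (ENSMUSG00000022722) had 6917, 5693 and 7013 scaled reads, against 2368, 2040 and 2140 in control retina. In Rodko mice it had 6869, 6076 and 6024 in rods and 2192, 1818 and 1970 in retina. Every rod library was more than any retina library, and the adjusted p was 1.7e-09 in control mice by limma. Bbs12 had 515, 485 and 448 scaled reads in control rods and 637, 677 and 544 in control retina. Its values were 438, 395 and 522 in Rodko rods and 606, 544 and 706 in Rodko retina. The rod libraries were all below the retina libraries within each genotype, with an adjusted p of 0.023 in control and 0.0055 in Rodko mice by limma, and the control call was lost without control rods replicate 3, control retina replicate 1 or control retina replicate 2 (differences of -0.31, -0.33 and -0.29).

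**Figure D2:**
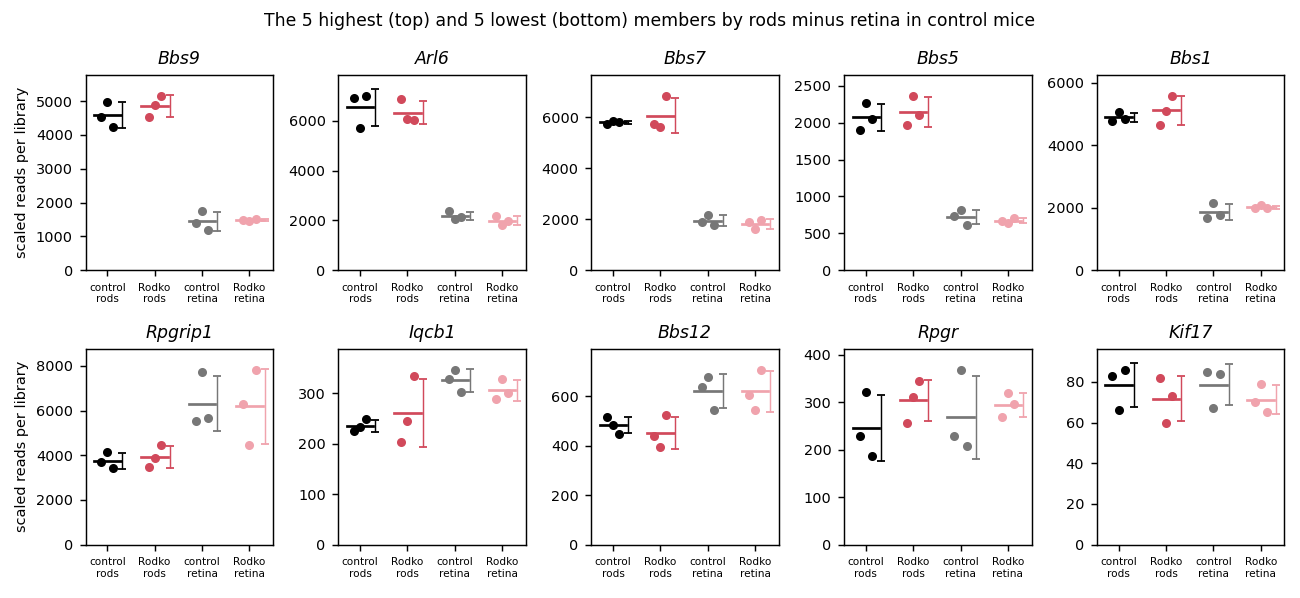
Scaled reads in each of the 12 libraries for the 5 cilium genes with the highest (top row) and the 5 with the lowest (bottom row) difference between rods and retina in control mice, with a line for the mean of each group of 3 and a bar for its SD. The rod libraries of Bbs9 sit between 4229 and 5165 and its retina libraries between 1200 and 1742, whereas Rpgrip1 and Bbs12 have higher retina than rod values and the rod and retina values of Rpgr and Kif17 overlap.

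Every gene of IFT-B, the complex of outward trains, was higher in control rods by TMM, 11 of 11 with a median of 0.87, and by library totals 6 were called higher and 1, Ift20, lower. The highest were Ift57 at 1.36, Ift74 at 1.21, the small GTPase Ift22 at 1.17, Ift80 at 0.99 and Ift81 at 0.97. Ift74 and Ift81 together bind tubulin. Ift172 stood at 0.87, the Rab-like GTPase Ift27 at 0.78, Ift52 at 0.65, Ift46 at 0.54, the core subunit Ift88 at 0.36 and Ift20, which also works at the Golgi, at 0.29. The calls of Ift88 and Ift20 were lost when single libraries were left out, down to differences of 0.22 and 0.17.

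Ift57, the highest IFT gene, had 925, 805 and 971 scaled reads in control rods and 352, 347 and 346 in control retina. Ift20, the lowest of IFT-B, had 603, 598 and 766 in control rods and 544, 500 and 552 in control retina. Both sets are free of overlap in control mice. In Rodko mice 10 of the 11 IFT-B genes were higher, and Ift20 stood at 0.11 with an adjusted p of 0.37 in limma. The Rodko call of Ift88 was lost without Rodko rods replicate 1, Rodko rods replicate 3 or Rodko retina replicate 2, down to 0.31, and by library totals Ift88 stood at -0.19 in control and -0.21 in Rodko mice without a call.

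Of the 3 IFT-A genes, which serve return transport, Ift122 at 1.36 and Ift43 at 1.18 were higher in control rods and Ift140 did not pass at 0.20 (adjusted p 0.12 in limma). In Rodko mice all 3 were higher, with Ift140 at 0.33, a call that was lost without Rodko rods replicate 3 or Rodko retina replicate 1, down to 0.24 with an adjusted p of up to 0.059 in limma. By library totals Ift122 and Ift43 were still higher, and Ift140 was called lower in control mice at -0.35 and stood at -0.25 in Rodko mice without a call.

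The kinesin-2 genes differed among themselves. Kif3b, a motor subunit, was higher at 0.99, and Kifap3, the non-motor subunit that binds it and Kif3a, at 0.36, while Kif3a stood at 0.10 and Kif17, the motor that works as a homodimer, at -0.00. By library totals Kif3b remained higher at 0.44, Kifap3 stood at -0.19 without a call, and Kif3a and Kif17 were called lower, at -0.45 and -0.55. In Rodko mice Kif3a was higher at 0.36 by TMM, a call lost without Rodko rods replicate 2 or 3 or Rodko retina replicate 1 or 2, down to 0.23, and by library totals it stood at -0.23 without a call. Kif17 had 83, 66 and 86 scaled reads in control rods and 85, 67 and 84 in control retina. Its Rodko libraries held 82, 60 and 73 in rods and 70, 79 and 65 in retina. These values overlap throughout, and the 95% interval of the difference in control mice was -0.43 to 0.42.

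The 11 genes of the connecting cilium and transition zone ranged from Rpgrip1 at -0.74 to Tmem67 at 1.08. In control mice 7 were higher, 2 lower and 2 did not pass, with a median of 0.61. Beside Tmem67 the higher genes were Nphp4 at 1.03, Lca5 at 0.93, Rpgrip1l at 0.69, Spata7 at 0.64, Cep290 at 0.61 and Cc2d2a at 0.43. Tmem67 and Cc2d2a belong to the transition zone membrane module mutated in Meckel syndrome, Nphp4 and Rpgrip1l to the nephronophthisis module, Lca5 encodes lebercilin, and Cep290 lies between the microtubules and the membrane. Scaled by totals, 3 of the 11 were called higher in control mice, Nphp4, Tmem67 and Lca5. The 4 called lower were Rpgrip1, Iqcb1, Rpgr and Ahi1. Rpgrip1l at 0.14, Spata7 at 0.09, Cep290 at 0.06 and Cc2d2a at -0.12 were not called by totals. By TMM the calls of Cep290 and Cc2d2a were lost when single libraries were left out. These were control rods replicate 2, control retina replicate 1 or control retina replicate 3, with differences down to 0.49 and 0.30.

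Rpgrip1 (ENSMUSG00000057132) was the gene lowest in the rod pull-down relative to the retina. It had 3674, 4123 and 3420 scaled reads in control rods and 5511, 7741 and 5687 in control retina. In Rodko mice the values were 3450, 3867 and 4438 in rods and 6298, 4439 and 7825 in retina. Each rod library was below each retina library of its genotype, although by 1 read in Rodko mice, and the log2 difference was -0.74 ± 0.17 (SE) in control and -0.63 ± 0.17 in Rodko mice, with adjusted p of 0.0015 and 0.0049 in limma. The value stayed negative under every scaling tried, and it was not called after centring on the median of all genes tested, at -0.38. That median was -0.37 in control mice, whereas it was 0.24 among genes with at least 10 reads in every library. Exons of Rpgrip1 overlap Supt16 on the opposite strand by 1057 bases, 8.70% of its exonic length, and whether counting used strand is not stated.

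Iqcb1, a partner of Cep290, had 226, 233 and 249 scaled reads in control rods and 329, 347 and 302 in control retina. In Rodko mice it had 204, 245 and 335 in rods and 289, 328 and 301 in retina. It was lower in control rods, at -0.46 with an adjusted p of 0.014 in limma, and was not called in Rodko mice, where rods and retina overlapped and the difference was -0.26. Without control retina replicate 2 the control call was lost at -0.42, and without Rodko rods replicate 3 it was called lower in Rodko mice too, at -0.44.

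Rpgr, which encodes the retinitis pigmentosa GTPase regulator, had 228, 321 and 187 scaled reads in control rods and 228, 368 and 207 in control retina. Its Rodko values were 257, 310 and 344 in rods and 268, 319 and 295 in retina. The libraries overlapped in both genotypes, and the difference of -0.12 in control mice had a 95% interval wide enough to hold any value between -0.57 and 0.33. Ahi1, mutated in Joubert syndrome, stood at 0.16 in control mice without passing and was higher at 0.44 in Rodko mice, both by TMM. By library totals Ahi1 was called lower in control mice at -0.39 and stood at -0.14 in Rodko mice without a call. Rpgr was called lower by library totals in both genotypes, at -0.66 in control and -0.54 in Rodko mice.

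A ratio of groups within a library does not depend on how the libraries are scaled. The 8 BBSome genes together had 2.54 ± 0.111 reads for each read of the 11 IFT-B genes in control rods and 2.60 ± 0.111 in Rodko rods (SD, n = 3 each). In retina the ratio was 1.79 ± 0.114 in control and 1.83 ± 0.0315 in Rodko mice. The 6 rod libraries lay between 2.41 and 2.67 and the 6 retina libraries between 1.71 and 1.92. Against the 11 connecting cilium and transition zone genes the BBSome had 2.23 ± 0.120 reads per read in control rods and 0.866 ± 0.0553 in control retina. Rpgrip1 made up 28.4% ± 0.541 of the reads of these 11 genes in control rods and 48.5% ± 1.77 in control retina. Without it, an alternative added after seeing the data, the second ratio was 3.11 ± 0.156 in control rods and 2.90 ± 0.232 in Rodko rods, against 1.68 ± 0.0493 in control retina and 1.69 ± 0.0219 in Rodko retina. Rods and retina did not overlap for either ratio, nor for the second without Rpgrip1. All 41 genes together took 0.337% ± 0.0153 of the reads in control rods and 0.273% ± 0.0275 in control retina.

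**Figure D3:**
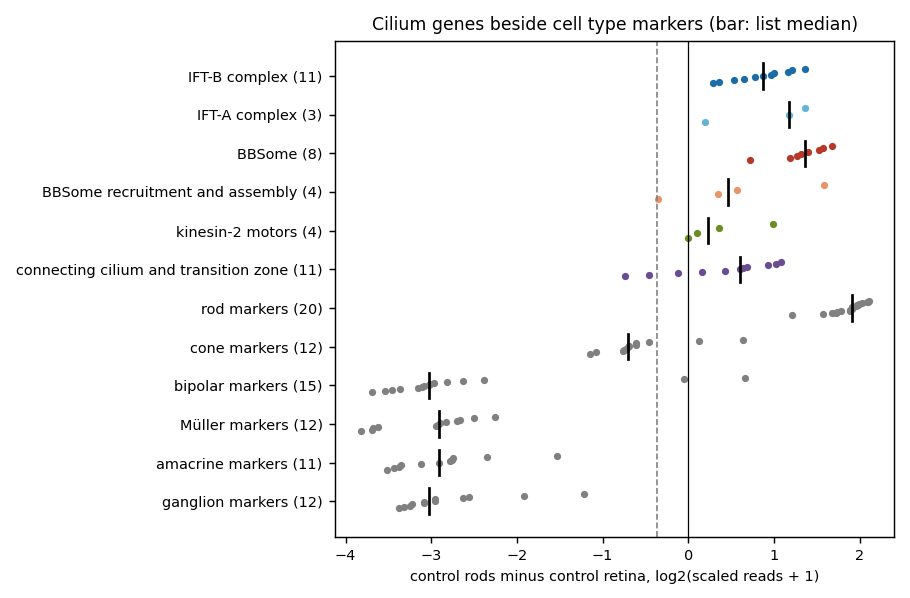
Rods minus retina in control mice, in log2(scaled reads + 1), for each gene of the 6 cilium groups (coloured) and of 6 lists of cell type markers (grey), with a black bar for the median of each list, the number of genes in brackets and a dashed line at -0.37 for the median of all genes tested. The BBSome genes lie, by their median of 1.36, between the other cilium groups and the rod markers, whose median is 1.91, and far from the markers of bipolar cells and Müller glia at -3.03 and -2.91.

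The cilium genes lay below the rod markers. The highest, Bbs9 at 1.68, was under the rod markers' median of 1.91, and 4 cilium genes were among the 500 genes with the highest difference in control mice. In bulk samples, fewer cells of a type and less RNA per cell cannot be told apart. The rod values are RNA on ribosomes and the retina values are total RNA. The cells of origin and the share of an RNA on ribosomes therefore cannot be told apart either. Most retinal cells have a primary cilium, so RNA of these genes in the retina can come from rods and from other cells.

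Compared per gene length, Arl6 and most BBSome subunits were among the most abundant genes of the set. These levels are TPM, the reads of a gene divided by its exonic length and scaled to the same sum over all genes in every library. Arl6 had 584, 503 and 584 TPM in the control rod libraries, a mean of 557 ± 46.6 (SD, n = 3), and 214 ± 10.3 in control retina. This was 2.89 times the next gene, Bbs7, at 193 ± 7.95 TPM, and 11.2 times the median of the set, 49.9 TPM. Arl6 and BBSome subunits made up 8 of the 10 highest genes in control rods, and the same count was found when the longest transcript was used as the length. Ttc8 had 166 ± 14.2 TPM, Bbs5 152 ± 17.4, Bbs4 146 ± 4.62 and Bbs9 132 ± 15.1. Kif3b, at 121 ± 6.19 TPM, stood above Bbs1 at 114 ± 6.92, and Bbip1, at 50.1 ± 4.92, lay near the median of the set.

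At the other end, Kif17 had 3.22, 2.69 and 3.27 TPM in the control rod libraries, the lowest level of the set, followed by Spata7 at 5.96 ± 0.780. Rpgrip1, the gene lowest in rods relative to retina, was not a rare one. It had 55.2 ± 7.02 TPM in control rods and 108 ± 24.7 in control retina, where Arl6 was the 1 gene of the set above it. Across the 41 genes the level in control rods and the rod minus retina difference had a Spearman rho of 0.61, given as a description since genes are not replicates and both values share the control rod libraries. The same difference and exonic length had a rho of -0.13 over these genes.

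**Figure D4:**
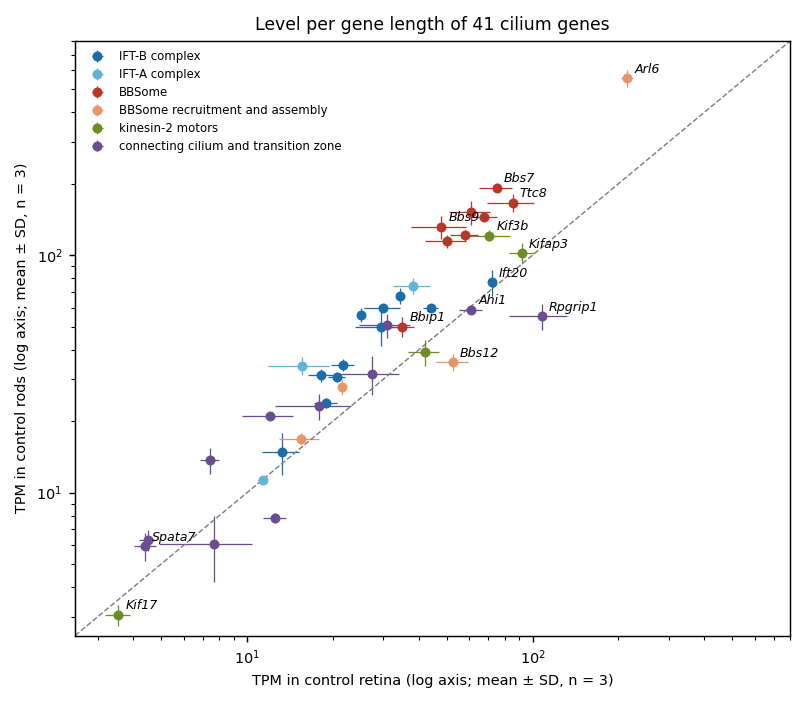
Mean TPM of the 41 cilium genes in control rods against control retina, on log axes, with bars for the SD over 3 libraries, a dashed line of equality and colours for the groups. Arl6 stands apart at 557 TPM in rods, Bbs7 follows at 193 while Bbip1 lies at 50.1, and Rpgrip1 lies below the line at 55.2 in rods and 108 in retina.

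Genes of cilia are often controlled by RFX factors, whose site, the X-box, is made of inverted half-sites such as GTTGCC, and rod genes by CRX, which binds TAATCC. Both motifs were searched on either strand in the 250 bases before each RefSeq start (GRCm38.p6, whereas the data were aligned to GRCm39 according to the submitters' processing notes), and 37 of the 41 genes had an entry. These genes have 43 starts, and the shares of all genes are counted by start. An X-box was found before Ift57 and Kif17, 2 of 37 genes and 2 of 43 starts, and before 1.29% of all starts. GTTGCC alone was found before Bbs7, Ift140, Ift27, Ift57, Kif17 and Kif3a. This was 6 of 37 genes and 6 of 43 starts, beside 10.4% of all starts, and the X-box matches contain it. TAATCC was found before Bbs1 and Rpgrip1, 2 of 37 genes and 2 of 43 starts, and before 6.25% of all starts. The stretches below are shown because they set Bbs7, at 2.98-fold in control rods, beside Kif17, which has the same half-site and whose rod and retina values overlapped by TMM, although it was called lower by library totals at -0.55, and add the CRX-type match of Bbs1. Each reads 5′ to 3′ on the strand of its gene, and capitals mark the match, which is the whole X-box for Kif17.
Bbs7, chr3:36613483-36613532, minus strand: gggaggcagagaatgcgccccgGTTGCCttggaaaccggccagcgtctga
Kif17, chr4:138262156-138262212, plus strand: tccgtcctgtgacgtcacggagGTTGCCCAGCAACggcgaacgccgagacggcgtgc
Bbs1, chr19:4906797-4906846, minus strand: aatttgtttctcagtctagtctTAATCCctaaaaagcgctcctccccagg

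In Bbs7 the half-site begins 121 bases before the start, in Kif17 the X-box begins 73 bases before it, and in Bbs1 the CRX-type match begins 197 bases before it. A match of letters is a description and not a site of binding. Bbs7 and Kif17, at 1.58 and -0.00, share the half-site, and Bbs1 and Rpgrip1, at 1.40 and -0.74, share the CRX-type letters.

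The second question was whether loss of PKM2 in rods changed these genes. None of the 41 was called between Rodko and control mice, in rods or in retina. The median difference (Rodko minus control, in log2(deposited value + 1)) was 0.07 in rods and -0.00 in retina, beside 0.01 and -0.00 over all genes. The differences ran from -0.17 for Ift20 to 0.40 for Mkks in rods and from -0.19 for Ift81 to 0.24 for Nphp4 in retina. The limma test called 4 of 20658 genes in rods, 0.0194%, and 1 of 25590 in retina, 0.00391%. edgeR and DESeq2 on the recovered reads also called 0 of the 41 in either fraction. At an unadjusted p under 0.05 there were 2 cilium genes in rods, where 4.77% of all genes passed, and 1 in retina, where 4.18% passed.

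The 95% confidence intervals of the 41 genes ran from -0.61 to 0.76 in rods and from -0.51 to 0.58 in retina, so for each gene a change as large as 1 on the log2 scale lies outside. The median half-width of these intervals was 0.24 in rods. In the BBSome all 8 differences were above 0 in rods, from 0.03 for Bbs4 to 0.09 for Bbs9, and no interval reached beyond 0.29. Of all 41 genes, 34 had a difference above 0 in rods and 20 in retina.

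**Figure D5:**
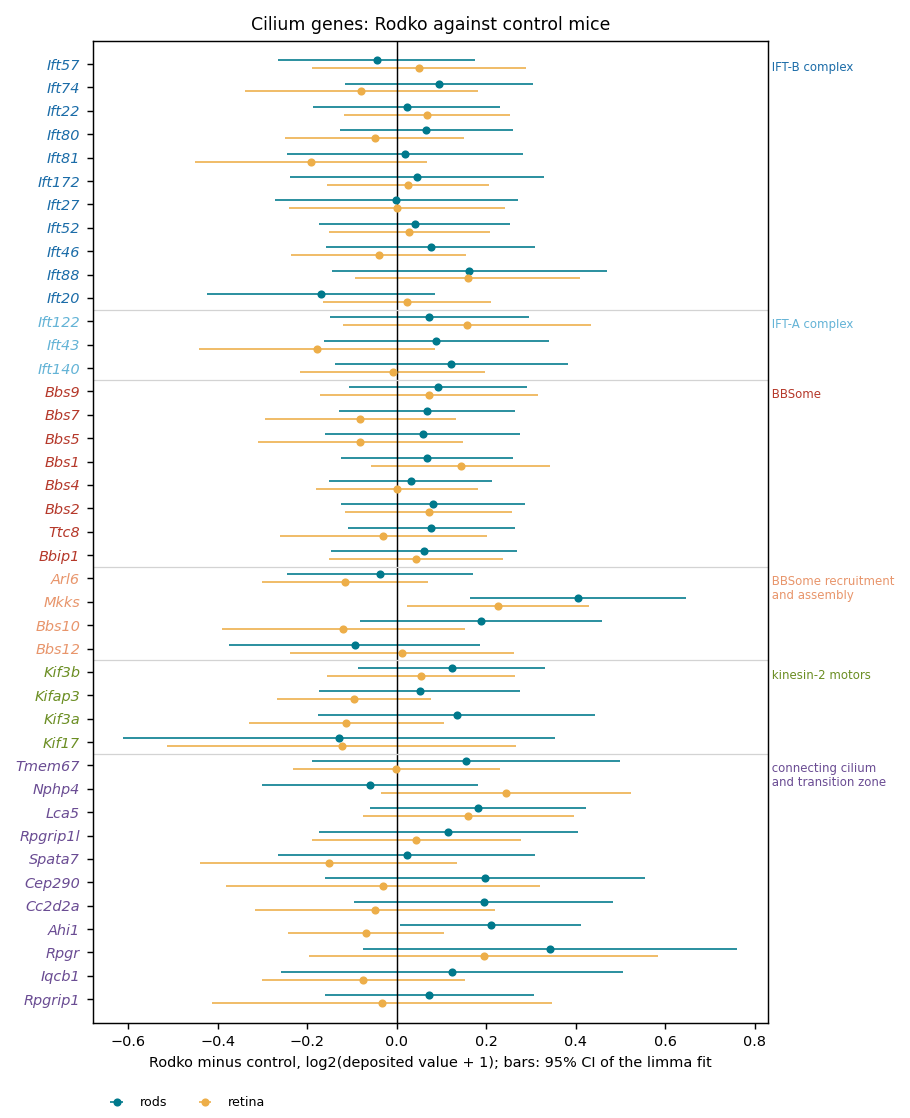
Rodko minus control for each of the 41 cilium genes, in log2(deposited value + 1), with rods in teal, retina in amber and bars for the 95% confidence interval of the limma fit. The intervals of most genes span 0, the differences lie between -0.19 and 0.40, and Mkks is the gene farthest to the right in rods.

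Mkks (ENSMUSG00000027274), the chaperonin-like gene of BBSome assembly, had the smallest unadjusted p in both fractions. Its deposited values were 404.9, 415.8 and 377.1 in control rods and 505.9, 585.3 and 498.2 in Rodko rods. In retina they were 424.7, 385.8 and 404.9 in control and 467.3, 477.5 and 476.8 in Rodko mice. The Rodko libraries lay above the control libraries in both fractions, by 0.40 (95% interval 0.16 to 0.65) and 0.23 (0.02 to 0.43), and the adjusted p was 0.93 and 0.95 in limma. Within rods or retina alone, 9.89% and 9.29% of all genes had groups that do not overlap. Rods and retina of the same number deviate together, so the fractions are not separate samples of this difference. Exons of Mkks share 944 bases, 29.2% of its length, with AL731706.1 on the same strand, so reads there cannot be given to 1 gene for certain.

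Ahi1 had deposited values of 1867.1, 1861.8 and 1806.7 in control rods and 2056.9, 1961.6 and 2407.2 in Rodko rods. Its retina values were 2512.0, 2684.7 and 2321.2 in control and 2424.2, 2223.8 and 2514.3 in Rodko mice. The rods did not overlap and the retinas did, with differences of 0.21 and -0.07, and the adjusted p was 0.93 and 0.95 in limma. Nphp4 had 339.0, 486.0 and 448.6 in control retina and 466.3, 519.1 and 507.7 in Rodko retina, which overlap. In rods it had 579.2, 566.1 and 555.8 in control and 475.4, 568.1 and 595.7 in Rodko mice.

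The difference between the genotype effect in rods and in retina was tested in the fit of all 12 libraries. None of the 25478 genes was called, and 4.43% had an unadjusted p under 0.05. Among the cilium genes this was Ahi1 alone, at 0.29 with an unadjusted p of 0.030 and an adjusted p of 0.98 in limma. The rod minus retina differences of the 2 genotypes, which share no library, had a Pearson r of 0.98 and a Spearman rho of 0.96 over the 41 genes as a description, and the widest gap was 0.32 for Bbs10. In both genotypes 32 genes were higher and 2, Rpgrip1 and Bbs12, were lower.

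Some values moved with the genotype comparison. Rodko rods replicate 3 was the highest of the 6 rod libraries for 26 of the 41 genes, and in it the deviation from the group mean rose with exonic length, with a rho of 0.46 over all genes and 0.55 over the 41. Rodko rods replicate 1 had a rho of -0.42 over all genes. Without Rodko rods replicate 3 the median genotype difference of the 41 genes in rods was 0.01 instead of 0.07. Among retinas, control retina replicate 2 was the highest of 6 for 26 of the 41 genes. With that library left out, and also with Rodko rods replicate 3 left out, 33 genes were higher and 2 lower in control rods and 32 higher and 3 lower in Rodko rods. Markers of other cells had medians below 0 for Rodko minus control rods, at -0.42 over 15 bipolar genes (13 below 0), -0.30 over 12 Müller genes (11 below 0) and -0.47 over 11 amacrine genes (10 below 0), beside 0.05 over 20 rod genes (2 below 0), and limma called 0 of them. An unadjusted p under 0.05 in limma was found for 6 bipolar, 4 Müller, 5 amacrine and 0 rod genes. In rods the ganglion median was -0.36 (12 of 12 below 0) and the cone median -0.10 (9 of 12). Values below 0 were also seen for Rodko minus control retina. There the medians were -0.24 for bipolar (14 of 15 below 0), -0.16 for Müller (12 of 12) and -0.05 for amacrine genes (7 of 11). The rod genes stood at 0.09 in retina (2 of 20 below 0). Summed, the bipolar markers ran from 7512 to 8895 scaled reads in control rods and from 6813 to 9119 in Rodko rods. The Müller markers ran from 8630 to 11266 and from 7708 to 8756, and the amacrine markers from 2477 to 3509 and from 2070 to 2480. Their part in the values of the cilium genes was not tested.

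Bbs4 lies next to Adpgk, a glucose kinase gene, with no protein-coding gene between them in RefSeq, and 5 lie between Bbs4 and Pkm. Adpgk was among the 4 genes called lower in Rodko rods, at -1.02 with an adjusted p of 0.0071 in limma. Bbs4 stood at 0.03 in rods (95% interval -0.15 to 0.21) and 0.00 in retina (-0.18 to 0.18). The exons of the neighbours overlap by 194 bases on opposite strands.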

How the data were processed

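The deposited signal of a gene is its reads over a size factor of the library, kept by the authors to 1 decimal. The submitters' processing notes name CASAVA 1.8.2, HISAT2, DESeq2, edgeR and GRCm39, and the counter, annotation and strand are not given in the sources used here. The step between values gave the reads back, and 99.985% of positive values were whole reads within 0.051. Size factors had been set within rods and within retina, so rods were compared with retina on recovered reads scaled by TMM over 12 libraries (edgeR 4.0.16), as log2(x + 1) in limma 3.58.1 with 4 group means, a variance trend and Benjamini-Hochberg adjustment. Genotypes were compared within a fraction on log2(deposited value + 1). Genes with a mean of at least 1 in a group were tested. With 3 libraries against 3, an exact permutation test of a single gene cannot go below 0.1. TPM used GENCODE exon lengths matched by gene identifier (91.9% of genes, 41 of 41 members). The fits were tested on simulated data. The fit of 4 group means has no block, and a fit with the replicate number as a block was an alternative. The deviations of rods and retina of the same replicate number correlated in every pair (0.163, 0.398 and 0.383 in control and 0.317, 0.171 and 0.342 in Rodko mice, over 12918 genes). This pairing comes from the data and the shared numbers, and genotypes were not paired. No replicate pair was so alike as to be 1 library in 2 copies. Every member is named with its control difference, and all 12 library values are given for the 5 highest and 5 lowest, and for those with the smallest p by genotype or the highest and lowest TPM in rods. The members and lists were chosen with earlier results of these data known. Alternatives were other scalings, pseudocounts, filters, edgeR, DESeq2 1.42.0, the replicate block and each library left out. One result on a gene outside the 41 is not reported here.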

Additional observations from a re-analysis of the deposited data

How the results depend on the processing

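The scale shared by rods and retina moved the counts most. With library totals, 20 genes were higher and 9 lower in control rods (median 0.23) and 19 and 6 in Rodko rods (median 0.24). With the values as deposited, an alternative added after seeing the data, the counts were 19 and 10 (median 0.18) and 19 and 7 (median 0.22), since rods and retina had been scaled apart. Centred on the median gene, also added, 0 were lower in either genotype by limma and the medians were 1.14 and 1.13, with Bbs12 at 0.0093, Rpgr at 0.25 and Kif17 at 0.36. The cause was not tested. That centre was the median of all genes tested, -0.37 in control and -0.32 in Rodko mice. Among genes with at least 10 reads in every library the medians were above 0, at 0.24 and 0.26, and centring on those was not run. Without both libraries that stood apart, Rodko rods replicate 3 and control retina replicate 2, Rpgr stood at 0.14. Leaving out 1 library at a time gave 29 to 33 higher and 1 to 3 lower genes in control rods (1 lower without control retina replicate 2), and 32 to 35 and 2 to 3 in Rodko rods. Over these fits the median genotype difference ran from 0.01 to 0.12 in rods and from -0.07 to 0.05 in retina, Rpgr from -0.34 to 0.14 and Kif17 from -0.12 to 0.093. In the fit with the replicate number as a block, the counts were 33 and 3 in control and 35 and 2 in Rodko mice and 0 by genotype, and no call of the 41 genes changed. edgeR, DESeq2, RLE scaling, the other pseudocount and both filters kept every count within 1.5 times. The median TPM over all groups was 47.0, and 54.9 with the longest transcript as length. The lowest value of any of the 41 genes was 45 reads, and the precision was set by 3 libraries a group.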

Other observations

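Other cilium genes, from lists written with earlier results of these data known, ranged from higher to lower in rods than in retina in control mice. The limma fit was the same, with 23.6% of all genes called higher and 35.7% lower. Among genes with at least 10 reads in every library these shares were 45.8% and 28%. By library totals they were 8.43% and 49.1% of all genes, and the counts of these lists under that scaling are not given here. Of 11 further IFT genes, 9 were higher and 1 lower in rods, with a median of 0.75. The highest was Wdr35 of IFT-A at 1.10, and the lower one was Tulp3, an adaptor that brings membrane receptors to IFT-A, at -2.97. Of 5 genes of the dynein-2 return motor, 4 were higher with a median of 1.14, from Dync2i2 at 1.60 down to the heavy chain Dync2h1, which did not pass at -0.32. Lztfl1, which binds the BBSome, was higher at 0.64. Of 17 further transition zone genes, 13 were higher and 3 lower, with Tmem138 highest at 1.69.

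Genes of ciliary membrane trafficking and of the photoreceptor cilium were the most uniform list, with 18 of 21 higher and 0 lower by limma, a median of 0.61, and Tulp1 highest at 1.86 and Poc1b lowest at 0.15. Of 14 basal body and distal appendage genes 6 were higher and 3 lower, from Cep41 at 1.28 to Ccp110, which caps centrioles, at -1.55. Of 11 motile axoneme genes tested, 1 was higher and 4 lower, with a median of -0.91, from Dnai2 at 1.36 to Dnah11 at -3.72. Of 6 RFX factor genes 2 were higher and 2 lower, and the differences ran from Rfx4, which did not pass at 1.18, to Rfx3 at -0.48. None of these genes was called by genotype in rods or retina, where 0.0194% and 0.00391% of all genes were called.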
